A study of Mus musculus with 5 samples.

Results

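Genes of the hypoxia response and of glycolysis were followed in jaw joint cartilage, dissected from the mandibular condyle, of mice that have or lack discoidin domain receptor 1 (Ddr1), a receptor tyrosine kinase that binds collagen. The list held 35 genes chosen by name, and 32 of them had a row of their own on the array, out of 19938 genes tested. A gene was measured by rows whose platform annotation gave its symbol alone, and by the brightest of these rows where it had several. Gpi1, Eno1 and Gapdh had no such row. All mice were of strain 129/Sv. Total RNA taken directly from the cartilage was hybridised to Affymetrix mouse gene 1.0 ST arrays, 1 array per mouse, with 2 Ddr1 knockout mice (knockout 2 and 5) and 3 wild-type mice (wild type 3, 4 and 6). The labels name the knockout as DDR-1-KO, without an allele, and give neither age nor sex. Going by the dates in the array names, run 1 held knockout 2 and wild type 3, and run 2 held knockout 5 and wild types 4 and 6. Values are log2 signals, and a change is the knockout mean minus the wild-type mean of these signals.

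Hypoxia-inducible factors (HIF) are transcription factors whose alpha subunits are marked for destruction by oxygen-dependent prolyl hydroxylases. When oxygen is short the alpha subunit persists, pairs with Arnt and binds DNA at hypoxia response elements with the core ACGTG or GCGTG. Its targets include glucose transporters, most glycolytic enzymes and genes of mitophagy, pH control and collagen hydroxylation. Cartilage is poor in blood vessels, and chondrocytes rely on glycolysis for most of their energy.

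Promoters of the genes on which the results turn are shown first. HIF binds at these cores, and its known targets include genes of both groups compared below. Each sequence is the 250 bases upstream of a RefSeq start (GRCm38.p6), 5′ to 3′ on the strand of the gene. Capitals mark ACGTG and GCGTG on either strand, with overlapping matches run together. Slc2a1 had the lowest p of the list, Ldha and Ldhb were low in different knockout mice, Pgk1 was the enzyme with the largest positive change, and P4ha2 had the largest change. Slc2a1 is at chr4:119108495-119108744 (+), Ldha, by the first of its 2 listed starts, at chr7:46845554-46845803 (+), Ldhb at chr6:142507958-142508207 (-), Pgk1 at chrX:106186850-106187099 (+) and P4ha2 at chr11:54100674-54100923 (+).
Slc2a1: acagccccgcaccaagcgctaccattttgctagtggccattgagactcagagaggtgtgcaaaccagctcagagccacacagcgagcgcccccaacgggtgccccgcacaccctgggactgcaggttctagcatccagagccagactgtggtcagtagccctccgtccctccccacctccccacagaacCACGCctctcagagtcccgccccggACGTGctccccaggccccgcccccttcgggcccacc
Ldha: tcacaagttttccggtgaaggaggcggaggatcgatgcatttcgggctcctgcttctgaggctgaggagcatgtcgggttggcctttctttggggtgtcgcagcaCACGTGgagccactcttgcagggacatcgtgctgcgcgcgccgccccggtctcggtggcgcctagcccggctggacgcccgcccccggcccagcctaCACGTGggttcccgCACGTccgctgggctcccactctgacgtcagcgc
Ldhb: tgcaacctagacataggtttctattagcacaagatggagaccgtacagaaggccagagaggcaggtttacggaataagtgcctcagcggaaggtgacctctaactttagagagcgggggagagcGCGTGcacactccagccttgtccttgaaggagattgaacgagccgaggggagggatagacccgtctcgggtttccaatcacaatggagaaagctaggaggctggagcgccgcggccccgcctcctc
Pgk1: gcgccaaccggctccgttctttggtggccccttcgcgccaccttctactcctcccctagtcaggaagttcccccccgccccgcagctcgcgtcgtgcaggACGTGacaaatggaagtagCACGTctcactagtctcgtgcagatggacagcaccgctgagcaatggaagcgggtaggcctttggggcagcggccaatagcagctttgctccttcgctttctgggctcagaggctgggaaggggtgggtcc
P4ha2: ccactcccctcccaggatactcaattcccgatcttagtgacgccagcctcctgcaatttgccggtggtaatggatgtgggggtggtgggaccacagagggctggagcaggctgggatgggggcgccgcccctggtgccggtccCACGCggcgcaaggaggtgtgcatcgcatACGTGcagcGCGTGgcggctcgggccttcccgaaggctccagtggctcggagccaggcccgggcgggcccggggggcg

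The Ldha promoter held 5 matches to ACGTG, with those in the palindrome CACGTG counted on each strand, and none to GCGTG. At its second listed start (chr7:46846832-46847081, +) it held none to ACGTG and 1 to GCGTG. Ldhb, which encodes the other lactate dehydrogenase subunit, also held 1 match to GCGTG and none to ACGTG. RefSeq entries were matched for 28 of the 32 measured genes, with 37 promoters. Of these promoters 56.8% held ACGTG and 54.1% held GCGTG, against 16.6% and 28.2% of all 32851 promoters of the same length. The median content of G and C was 62.8% in the members' promoters and 52.4% in all promoters, so base composition differs along with the motif. By gene, ACGTG was found upstream of 6 of 13 glycolytic enzymes and of 6 of 7 HIF targets outside glycolysis. Neither core was found upstream of 2 of these 13 enzymes and 0 of these 7 targets. Either core was in 83.8% of the members' promoters and in 38.6% of all promoters. A match is a description of the letters, and binding was not measured here.

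Over all genes 309 were higher and 435 lower in knockout at adjusted p under 0.05. Across genes, correlations with the wild-type arrays were 0.984 to 0.993 for other wild types, 0.903 to 0.927 for knockout 5 and 0.814 to 0.837 for knockout 2. The standard deviation over all genes was 0.802 for knockout 2, 0.906 for knockout 5 and 0.991 to 1.02 for wild types. Ddr1 itself measured 6.02 for every wild-type mouse, 5.96 for knockout 2 and 5.80 for knockout 5 (change -0.14, limma's adjusted p = 0.377), and the positions of its probes were not used here, so it does not check the labels. The table holds repeated values. All 5 arrays had the same value in 6.26% of genes, the 3 wild types in 39.1%, and the most frequent value, 4.74144, fills 1509 of 177780 entries. A zero spread among wild-type arrays is therefore no measure of the spread between mice.

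None of the 32 measured genes of the list passed the test. The count was 0 of 32 in limma, beside 3.73% of all genes, and 1 of 32 at an unadjusted p under 0.05, beside 18.2% of all genes. Changes were below 0 in 20 genes, above 0 in 7 and exactly 0 in 5, where 51.1% of all genes were below and 42.6% above 0. The median change was -0.12, against -0.0083 over all genes. After cyclic loess between the arrays it was 0.020, against -0.017 over all genes, with 15 of the 32 genes below 0 (10473 of all 19938). The 2 knockout mice lay below all wild-type mice in 3 genes, Slc2a1, Hk2 and Pkm, beside 18.6% of all genes, and above them in none, beside 13.0%. Of the 32 genes, 23 were above the median level of all genes. Among the 9969 genes above that level, 55 were called higher and 391 lower. The shares over all genes are therefore not a like background for these members. In bulk tissue fewer cells of a type and less RNA per cell cannot be told apart.

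**Figure D1:**
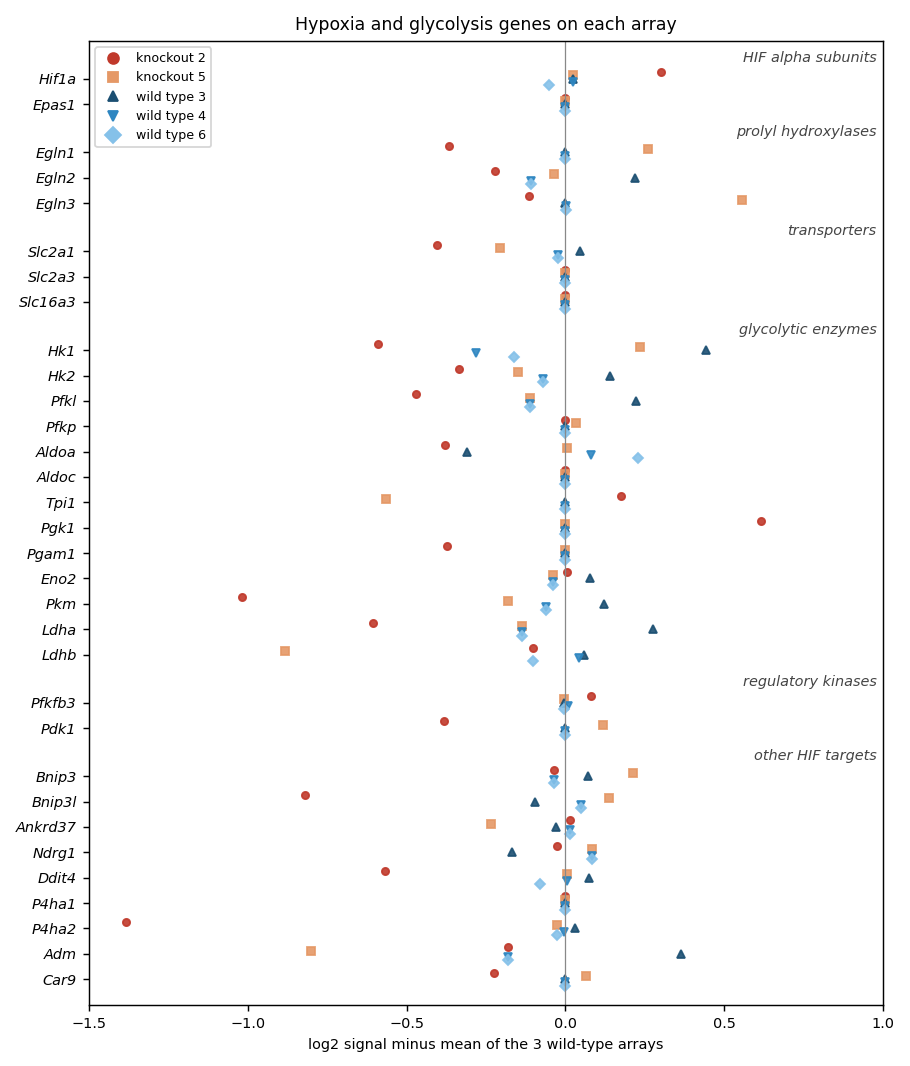
Log2 signal of each of the 32 measured genes on each of the 5 arrays, minus the mean of the 3 wild-type arrays (horizontal axis), with genes grouped by role. Each symbol is 1 array, with symbols shifted slightly up or down so that equal values can be seen. Knockout 2 lies farthest from the wild types in many genes, with P4ha2 at -1.38, and 5 genes have all symbols at 0.

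Apart from Slc2a1, Hk2 and Pkm, in no gene did both knockout mice lie on the same side of all wild types. Knockout 2 was below all wild types in 16 of 32 genes (41.4% of all genes) and above them in 4 (28.7%). Knockout 5 was below them in 7 (31.2%) and above them in 7 (31.4%), and shared its exact value with a wild type in 15 (33.6%), as knockout 2 did in 10 (26.6%). Knockout 2 was lower than knockout 5 in 19 genes (50.4% of all genes), higher in 8 and equal in 5.

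Of the HIF alpha subunits, Hif1a, the widely expressed one, was at 4.63 in knockout 2, 4.35 in knockout 5, 4.35 in wild types 3 and 4, and 4.28 in wild type 6. Knockout 2 alone stood above the others. Its change of 0.16 (SE 0.099) had an adjusted p of 0.399 in limma, and was 0.051 after cyclic loess. Epas1, the subunit known as HIF-2 alpha and prominent in endothelium, had the value 5.93 on all 5 arrays. An equal value on every array leaves a change of 0 by construction and does not show equal expression.

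The prolyl hydroxylases, which mark the alpha subunits, split the knockout mice. Egln1, the main oxygen sensor of most cells, was at 5.23 for knockout 2 and 5.85 for knockout 5, on either side of 5.59 in each wild type. Egln3, itself induced by HIF, was at 4.10 and 4.78 in knockout 2 and 5, against 4.22 in each wild type. The wild types lay between the knockout mice for both genes, with changes of -0.053 (adjusted p = 0.915) and 0.22 (adjusted p = 0.539) in limma. Egln2, a hydroxylase that is not itself a typical hypoxia target, was at 6.02 and 6.21 in knockout 2 and 5, and at 6.46, 6.13 and 6.13 in wild types 3, 4 and 6. Its groups overlapped, and the highest value was that of wild type 3.

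Among the transporters, Slc2a1, the basal glucose transporter GLUT1, came nearest to the threshold of all 32 genes. It was at 5.83 for knockout 2 and 6.03 for knockout 5, and at 6.29, 6.21 and 6.21 in wild types 3, 4 and 6. Both knockout mice were below all wild types. This amounts to -0.31 (SE 0.074, limma's adjusted p = 0.15), short of the threshold. Wild types 4 and 6 shared a value that fills 78 entries of the table, and the value of knockout 5, 6.0316, also appeared for Eno2. The knockout signal of Slc2a1 was 0.809 times that of wild type. Within run 1 the difference was -0.45 and within run 2 it was -0.18, and it was -0.13 after cyclic loess (adjusted p = 0.292). Without knockout 5 it was -0.41, with an adjusted p of 0.0177 that takes its spread from wild type alone, a fit in which 14 of 32 members and 50.2% of all genes passed. Without knockout 2, 8 of 32 members and 37.7% of all genes passed, and Slc2a1 did not. Slc2a3, the high-affinity glucose transporter GLUT3, was at 5.52 on all 5 arrays, and Slc16a3, the lactate exporter MCT4, at 5.94 on all 5.

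The first step of glycolysis is catalysed by hexokinase. Hk2, the isozyme induced by hypoxia and insulin, was at 5.23 and 5.41 in knockout 2 and 5, and at 5.70, 5.49 and 5.49 in wild types 3, 4 and 6. Its groups did not overlap, with a change of -0.24 (SE 0.10) at an adjusted p of 0.385 in limma. Hk1, the housekeeping isozyme, was at 6.33 and 7.15 in knockout 2 and 5, and at 7.36, 6.64 and 6.76 in wild types 3, 4 and 6. Knockout 5 lay inside the wild-type range. The brightest row of Hk1 lists no RefSeq transcript. Its other row, which does, had a change of -0.11.

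Of the phosphofructokinases, which commit glucose to glycolysis, Pfkl was at 4.51 in knockout 2 and 5.20 in wild type 3, and at 4.87 in all 3 mice of run 2. Its change was -0.29 (adjusted p = 0.399 in limma), with -0.69 within run 1 and 0 within run 2. Pfkp, the platelet isozyme, was at 4.74144 on every array but knockout 5, where it was 4.77. That repeated value is the most frequent one in the table.

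The aldolases split a sugar phosphate into trioses. Aldoa, the muscle and general isozyme, was at 6.20 and 6.58 in knockout 2 and 5, and at 6.27, 6.66 and 6.80 in wild types 3, 4 and 6. Both arrays of run 1 were below all arrays of run 2, and the change of -0.19 (adjusted p = 0.602) became -0.071 within run 1 and -0.15 within run 2. Aldoc, the brain isozyme, was at 5.27 on all 5 arrays, a value found in 316 entries of the table.

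Tpi1, which interconverts the trioses, was at 6.68 for knockout 2 and 5.94 for knockout 5, with 6.50 in each wild type. Pgk1, which makes the first ATP of the pathway, was at 4.59 in knockout 2 and at 3.97 in the other 4 mice, and its 3 rows were all higher in knockout 2 alone. The dimmer rows had equal values, 4.24 in knockout 2 and 3.67 in the other mice, so they are not separate results. All rows of Pgk1 were dim, below the array medians of 4.97 to 5.03. The change of Pgk1 was 0.31 (SE 0.209, limma's adjusted p = 0.399). Pgam1, the phosphoglycerate mutase, showed the opposite picture, with 5.24 in knockout 2 and 5.61 in the other 4 mice. One of its 3 rows was the same on all arrays. Eno2, the neuronal enolase, was between 6.03 and 6.15 on all arrays, with a change of -0.016.

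Pkm, the pyruvate kinase that makes the last ATP of the pathway, had the largest change among the enzymes. It was at 6.26 for knockout 2 and 7.10 for knockout 5, and at 7.40, 7.22 and 7.22 in wild types 3, 4 and 6. Both knockout mice were below wild type, by -0.60 on average (SE 0.292), with limma's adjusted p = 0.399. This row lists no RefSeq transcript. In the row that does, the knockout mice were at 5.99 and 5.68 and the wild types at 5.86, 6.03 and 5.99, with overlapping groups and a change of -0.13.

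The lactate dehydrogenase subunits, whose promoters are printed above, were low in different knockout mice. Ldha, the subunit of the form that favours lactate production and a classical HIF target, was at 6.22 in knockout 2, 7.10 in wild type 3, and 6.69 in each mouse of run 2. Ldhb, the heart subunit, was at 6.21 for knockout 2 and 5.43 for knockout 5, and at 6.37, 6.35 and 6.21 in wild types 3, 4 and 6. Relative to the wild-type means, Ldha minus Ldhb was -0.51 for knockout 2 and 0.74 for knockout 5, while the wild types ranged from -0.18 to 0.22. The changes of -0.37 for Ldha and -0.49 for Ldhb each had an adjusted p of 0.399 in limma. The second row of Ldhb was also lowest in knockout 5, at 5.19, with 5.48 in knockout 2 and 5.69 to 5.78 in wild type.

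**Figure D2:**
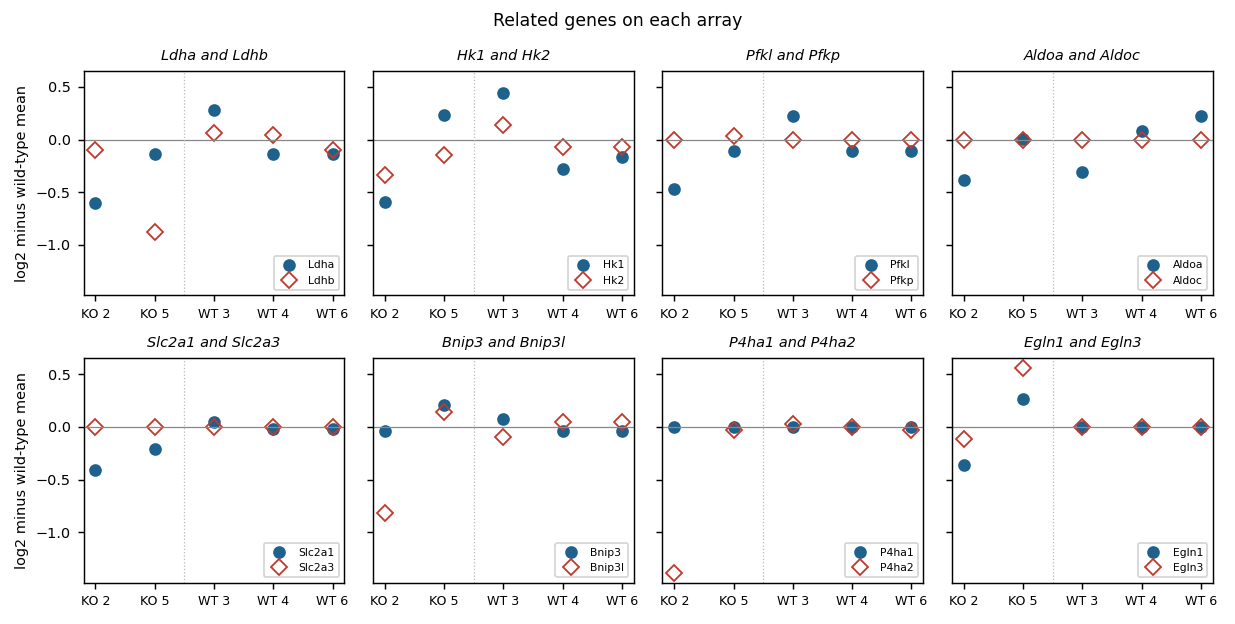
Log2 signal minus the wild-type mean (vertical axis) of 8 pairs of related genes on each array, with KO for knockout and WT for wild type. In the panel of lactate dehydrogenases Ldha is lowest in knockout 2 (-0.61) and Ldhb in knockout 5 (-0.88). Egln1 and Egln3 are low in knockout 2 and high in knockout 5.

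Gapdh, the triose dehydrogenase, could not be read alone. All 25 rows that name it also name other genes, most of them predicted sequences, and none is counted among the 32 genes. Each of these rows was higher in knockout, where 42.6% of all genes were, with changes from 0.098 to 0.90 and a median of 0.53. All name Gapdh, so they are not 25 separate results. They cannot be assigned to Gapdh.

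Of the kinases that steer the pathway, Pdk1, which inhibits pyruvate dehydrogenase and so holds carbon out of mitochondria, was at 4.54 for knockout 2 and 5.04 for knockout 5, around 4.92 in each wild type. Pfkfb3, which makes the activator of phosphofructokinase, was at 4.95 in knockout 2 and between 4.87 and 4.88 elsewhere. Neither passed limma, with an adjusted p of 0.619 for Pdk1 and 0.47 for Pfkfb3. The wild-type value of Pdk1 fills 577 entries of the table.

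HIF targets outside glycolysis began with the collagen prolyl 4-hydroxylases, which are needed for stable collagen. P4ha2, the form prominent in chondrocytes, had the largest change of all 32 genes. It was at 3.73 for knockout 2 and 5.09 for knockout 5, and at 5.14, 5.11 and 5.09 in wild types 3, 4 and 6. Knockout 2 alone was low, and knockout 5 had the exact value of wild type 6. Its change of -0.70 (SE 0.459) had an adjusted p of 0.399 in limma, with -1.41 within run 1 and -0.0099 within run 2. P4ha1, the more widespread form, was at 5.24 on all 5 arrays, a value found in 405 entries of the table.

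The mitophagy receptors Bnip3 and Bnip3l, which tag mitochondria for removal, had 2 rows each. Bnip3 by its brighter row was at 5.21 and 5.46 in knockout 2 and 5, and at 5.32, 5.21 and 5.21 in wild types 3, 4 and 6, with a change of 0.088. Its dimmer row went the other way, with 5.15 and 4.11 in knockout and 5.68, 5.41 and 5.43 in wild type, a change of -0.87. Both knockout mice were below wild type in that row, and with the rows averaged the change of Bnip3 turned negative. In the brighter row 3 arrays shared a value that fills 1108 entries of the table. Bnip3l was at 4.73 for knockout 2 and 5.69 for knockout 5, with 5.46, 5.60 and 5.60 in wild types 3, 4 and 6. Its second row was also low in knockout 2 alone, at 4.79 against 5.24 in each wild type.

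Adm, the vasodilator peptide adrenomedullin, was at 5.59 for knockout 2 and 4.97 for knockout 5, and at 6.13, 5.59 and 5.59 in wild types 3, 4 and 6. Each knockout array was below every wild type of its own run, by -0.54 in run 1 and -0.62 in run 2. Its change of -0.49 (SE 0.298) had an adjusted p of 0.399 in limma. A block for the run made it -0.59, with an adjusted p of 0.0528. The value of 5.59 shared by 3 of the arrays fills 509 entries of the table.

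Ddit4, an inhibitor of mTORC1 induced by hypoxia, was at 4.89 for knockout 2 and 5.47 for knockout 5, against 5.54, 5.47 and 5.38 in wild types 3, 4 and 6. Car9, a carbonic anhydrase of the cell surface that helps control pH, was at 4.27 and 4.55 around 4.49 in each wild type. For both genes knockout 2 was the lowest array. Ndrg1, a stress gene of growth arrest, was at 5.90 and 6.01 in knockout 2 and 5 and between 5.76 and 6.01 in wild type. Ankrd37, a small ankyrin repeat protein induced by HIF, was at 5.53 for knockout 2 and 5.28 for knockout 5, and between 5.48 and 5.53 in wild type. The changes of these 4 genes ran from -0.28 for Ddit4 to 0.029 for Ndrg1, and their lowest adjusted p in limma was 0.401.

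The glycolytic enzymes were then set against the HIF targets outside glycolysis. Of 13 enzymes 10 had changes below 0 and 2 above, with a median of -0.19. Among 9 targets 6 were below 0 and 2 above, with a median of -0.11. The enzymes' median was lower than the targets' by a difference of -0.077, and this order did not hold across scalings or runs. The difference was 0.16 after cyclic loess, where the enzymes' median was -0.017 and the targets' -0.18, and 0.11 after quantile normalisation. It was 0.062 within run 1, and both medians were 0 within run 2. With the rows of each gene averaged it was 0.087. On single arrays, the median deviation from the wild-type mean was -0.33 for enzymes and -0.18 for targets in knockout 2, and -0.039 and 0.0057 in knockout 5.

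**Figure D3:**
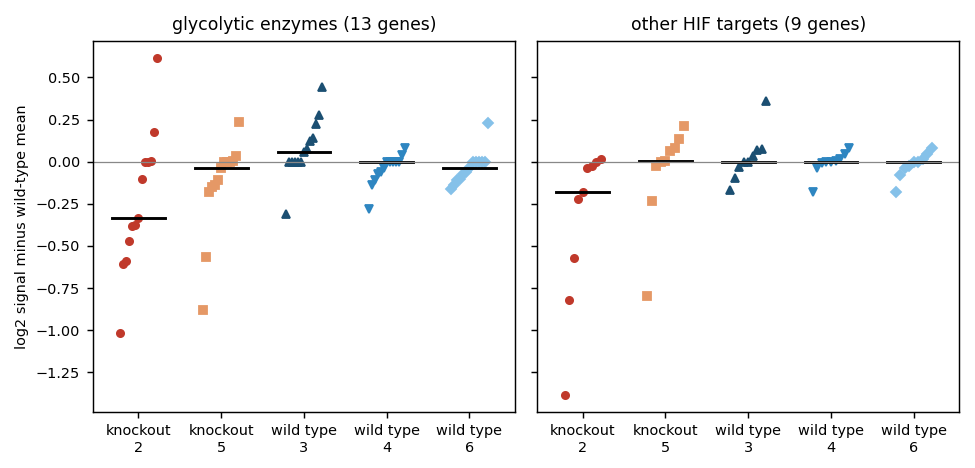
Log2 signal minus the wild-type mean (vertical axis) of the 13 glycolytic enzymes and the 9 HIF targets outside glycolysis, with 1 point per gene on each array and a black line at the median. The medians of knockout 2 lie at -0.33 and -0.18, and those of the other arrays between -0.039 and 0.060.

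Wild type 3, the only wild-type mouse of run 1, was above both other wild types in 13 of 32 genes (21.0% of all genes) and below both in 5. It was higher than the mean of wild types 4 and 6 by 0.66 for Hk1, 0.54 for Adm, 0.41 for Ldha, 0.33 for Pfkl and Egln2, and 0.21 for Hk2. For Aldoa it was lower by -0.46. With 1 such mouse, the run and the mouse cannot be told apart. Within run 1, 20 of the 32 genes were lower in knockout 2 than in wild type 3 and 6 were higher, with a median of -0.14. Over all 19938 genes, 9464 were lower and 6890 higher in that run, with a median of 0. Within run 2, 10 of the 32 genes were lower in knockout 5 and 11 higher, with a median of 0. Over all genes, 7545 were lower and 7558 higher in run 2, also with a median of 0. Run 1 holds 1 array of each genotype, so its differences have no replicate.

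**Figure D4:**
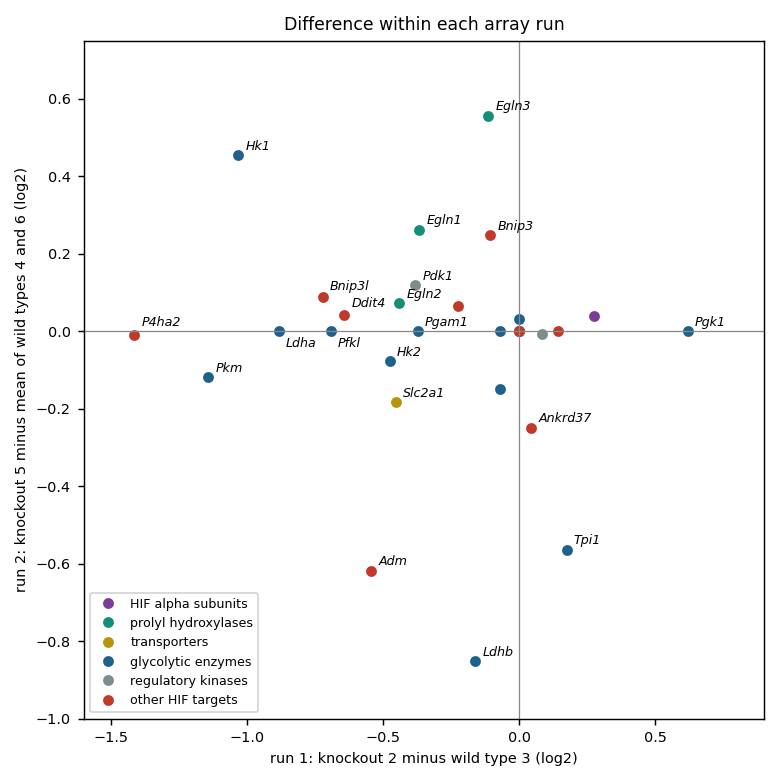
Difference between knockout and wild type within run 1 (horizontal axis, log2) and within run 2 (vertical axis, log2) for the 32 genes, coloured by role, with names for genes that differ by more than 0.3 in run 1 or 0.2 in run 2. P4ha2, Pkm and Hk1 lie far to the left and Ldhb, Adm and Tpi1 far down, and only Adm is below -0.5 in both runs.

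Other genes of the pathway, taken from lists of textbook members, held 2 calls. In the glycolysis list 1 of 27 measured genes fell and none rose, beside 2.18% and 1.55% of all genes. It was Gys1, the glycogen synthase of muscle and general tissues, at 5.11 in knockout 2, 4.998 in knockout 5 and 5.47 in all wild types (-0.42, SE 0.04, limma's adjusted p = 0.034). In the hypoxia list 1 of 37 fell and none rose. It was Arnt, the beta subunit that pairs with both HIF alpha subunits, at 5.02 and 5.04 in the knockout mice and 5.29 in all wild types (-0.26, SE 0.017, adjusted p = 0.0218). Both genes were lower within each run, by -0.36 and -0.47 for Gys1 and -0.27 and -0.24 for Arnt. The wild-type value of Gys1, 5.4684, matched one of Ddit4 that fills 296 entries of the table. That of Arnt, 5.289, was also the value of Angptl4, another gene of the hypoxia list, on all 5 arrays. Within Gys1 and within Arnt the wild-type values were identical, so the standard errors come from the knockout mice and from limma's shrinkage of variances. After cyclic loess the changes were -0.34 (adjusted p = 0.142) and -0.20 (adjusted p = 0.164). Neither gene was called once run was a block, where limma called 0 of all genes (3829 at an unadjusted p under 0.05).

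Next in order of p among the hypoxia genes, Kdm3a, a histone demethylase, was at 4.08 and 4.25 in the knockout mice and 3.86 in all wild types (adjusted p = 0.0981). Ak4, a mitochondrial adenylate kinase induced by HIF, was at 5.22 and 5.31 in the knockout mice and 6.03, 5.72 and 6.07 in the wild types (adjusted p = 0.107). Among the glycolysis genes Pfkfb2 and Pfkm, a bifunctional enzyme and the muscle phosphofructokinase, had changes of -0.25 each (adjusted p = 0.228). The groups of these 4 genes, picked by low p, did not overlap. Over the whole lists, both knockout mice were below all wild types in 8 of 27 glycolysis and 8 of 37 hypoxia genes. This held for 18.6% of all genes. Both were above all wild types in 2 genes of each list, beside 13.0% of all genes. The list medians were -0.18 for glycolysis and -0.014 for hypoxia.

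Markers of other cells in the dissected tissue, and of chondrocytes themselves, differed by list. All 15 chondrocyte markers were below wild type in knockout (51.1% of all genes were), with a median of -0.32, and 3 of them (Sox9, Comp and Col9a3) fell past the threshold, beside 2.18% of all genes. After cyclic loess 11 of the 15 were below, with a median of -0.17, and limma's adjusted p of these 3 was 0.118, 0.163 and 0.177. None of the 3 was called once run was a block. Among the 9969 genes above the median level, 391 were called lower and 55 higher. The summed linear signal of all 15 chondrocyte markers was 916 for knockout 2 and 1050 for knockout 5, and 1220 to 1240 for wild types. For skeletal muscle, which is rich in glycolytic enzymes, 10 of 12 markers were lower with 1 fall (Pygm, not called with the run as a block or, at an adjusted p of 0.0571 in limma, after cyclic loess), and the sum was 573 and 661 against 724 to 776. For endothelium, where Epas1 is prominent, 8 of 10 were lower and none passed, with sums of 395 and 448 against 476 to 508. For neutrophils 7 of 10 were higher and none passed, with sums of 418 and 428 against 370 to 385. Erythroid markers were lower in 2 and higher in 2 of 5 (267 and 277 against 294 to 308), and osteoblast markers lower in 4 and higher in 2 of 8 (416 and 524 against 516 to 524). The sum over all 13 glycolytic enzymes was 736 and 850 in knockout 2 and 5 and 894 to 1010 in wild type. Over all genes tested, the sum was also lower in knockout 2 and 5, at 763000 and 833000 against 843000 to 854000 in wild type. The part of these cells in the results was not tested.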

How the data were processed

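The deposited values are log2 signals, which the authors computed with Affymetrix Expression Console and RMA, per the submitters' processing notes. Software versions and build: not given in the sources used here. Of 35556 rows, 21789 had 1 gene symbol in the platform annotation, which left 19938 genes after taking the brightest row of each (19856 matched the GRCm38.p6 gene table by identifier). Detection above background was not called, so dim signals may not reflect expression, and signals of different genes are not compared.

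Knockout (n = 2) and wild type (n = 3) were set against each other in limma 3.58.1 under R 4.3.3 (lmFit, eBayes, all 5 arrays, no covariate, two-sided), with Benjamini-Hochberg adjustment over all genes tested and a threshold of 0.05. The fit was run on simulated data with independent normal noise of the same spread for all genes and both groups. Of 200 genes changed by 1 in log2, 100% were recovered, with 15 false calls. The simulated data lack the repeated values and the unequal spread of the real arrays, so they do not check the real p-values. P-values measure the spread between these arrays, each of a separate mouse per the labels. Where the 3 wild-type values were equal, the spread came from the knockout arrays and limma's shrinkage of variances alone. It is then no measure of the spread between wild-type mice. The members, lists and roles were chosen with earlier results of these data known. All members are given, and other pathway genes by counts and lowest p. The use of the row that lists a RefSeq transcript was added after seeing the data. Alternatives covered the run, dim genes, rows, variance model, scaling, threshold and each array left out.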

Additional observations from a re-analysis of the deposited data

How the results depend on the processing

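No member passed the threshold with the run as a block, among genes above the median level, with rows averaged, with all rows tested, with a trended robust variance, under any of the 3 scalings, at adjusted p under 0.1, with the row that lists a RefSeq transcript (added after seeing the data) or without any wild-type array, and Adm with the run as a block came closest at 0.0528. With 1 knockout array left out the spread came from wild type alone, and 8 members passed without knockout 2 (beside 37.7% of all genes) and 14 without knockout 5 (beside 50.2%). So the count of members ranged from 0 to 14 with an array left out, and that of all genes from 0 to 9999. Genes called fell from 744 of 19938 to 0 with the run as a block, with quantile normalisation and with cyclic loess (3829, 4109 and 4155 at an unadjusted p under 0.05). With only genes above the median level tested, 446 of 9969 were called, 55 higher and 391 lower. At adjusted p under 0.1 the count was 1630 of 19938. The direction turned in 8 members without knockout 2 and in 6 others without knockout 5. Of these, 5 also passed the threshold in the turned direction, with ranges over both settings of -0.37 to 0.26 for Egln1, -0.12 to 0.56 for Egln3, -0.56 to 0.17 for Tpi1, -0.38 to 0.12 for Pdk1 and -0.22 to 0.064 for Car9. The enzymes' median of -0.19 was 0 within run 2, -0.017 after cyclic loess and -0.33 to -0.039 with an array left out. The targets' median of -0.11 was -0.22 within run 1, 0 within run 2, -0.27 with rows averaged, -0.24 after quantile normalisation and -0.18 to 0.0057 with an array left out. Their difference of -0.077 was 0.062 within run 1, 0 within run 2, 0.087 with rows averaged, 0.11 after quantile normalisation, 0.16 after cyclic loess and -0.15 to -0.044 with an array left out. The cause was not tested. Arrays were matched by run, as above, and not by replicate number, since the genotypes share none. The number of arrays limits the precision.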
